A study of Homo sapiens with 20 samples.

Results

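The genes described here are the protein-coding genes of the 12q14-q15 segment around MDM2 in NGP cells, a human neuroblastoma cell line. They were chosen by position alone, as the GENCODE genes of the type protein_coding on chromosome 12 of GRCh38 whose start lies in a window of 12.7 Mb, without MDM2 itself. The first of them, DTX3, starts at position 57604622 and the last, CNOT2, at position 70243002. This gave 66 of the 20046 protein-coding genes of the annotation. Of these, 65 had a transcript in the deposited files and 61 passed the filter of at least 1 count in each condition, against 17358 of all protein-coding genes. WIF1, IFNG, IL22 and ENSG00000258052 did not pass that filter, and ENSG00000288591 is not analysed here. The 84 lncRNA genes of the same segment, of which 56 were tested, are described after them.

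The NGP nutlin dataset holds 10 samples treated with nutlin-3, a racemic mixture, at 8 µM and 10 samples treated with ethanol as vehicle. Both groups are the same cell line. Nutlin-3 is a small molecule that fits into the p53 pocket of MDM2. The libraries were made from poly(A) RNA, and the sum of estimated counts per sample lay between 14455477 and 19532971. The study calls the samples of a group biological replicates, grown in culture flasks, and p-values measure the spread between them. NGP cells are 1 line, and a line stands for 1 tumour.

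MDM2 encodes the ubiquitin ligase that holds the p53 protein in check, and it lies on the long arm of chromosome 12 next to several genes of growth control. Parts of this arm, with CDK4 and MDM2 as their best known genes, are amplified in some liposarcomas, glioblastomas and neuroblastomas. CDK4 is the cyclin-dependent kinase that drives passage through G1, FRS2 is the docking protein that links FGF receptors to the Ras pathway, and YEATS4 is a reader of acetylated histones in chromatin complexes. DNA copy number was not measured in these samples, and more copies of a gene and more RNA per copy cannot be told apart here.

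All 10 genes of the adrenergic neuroblastoma marker list, among them HAND2 and TH, were present, with a summed level of 4047 to 4860.2 TPM in vehicle and 4460.2 to 5432 TPM in nutlin samples. TPM scales a gene's counts by its length and to the same sum in every sample, so that levels of different genes can be compared. The epithelial and endothelial lists had no gene with a mean of 1 TPM. The mesenchymal list had 2 of 6 such genes and the immune list 1 of 4, with CD3E at 0 in every sample.

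Very high abundance was set at the 95th percentile of the mean vehicle TPM over all tested mRNAs, which was 130.4 TPM. Of the 61 tested genes of the segment 12 reached it (19.7%), against 5% of all mRNAs by construction. They were TSPAN31, CDK4, METTL1, TSFM, CTDSP2, ATP23, RAP1B, NUP107, CPSF6, YEATS4, CCT2 and CNOT2. Of these, 6 were above the 99th percentile of 651 TPM. Just below the threshold were SLC35E3, a putative nucleotide sugar transporter, with a mean of 123 TPM, and FRS2 with 111 TPM, and just above it was ATP23, a mitochondrial metallopeptidase, with 158 TPM. The median over the segment was 16.3 TPM, against 6.13 TPM over all tested mRNAs. At the other end 10 of the 61 genes (16.4%) stayed below 1 TPM, against 32.2% of all mRNAs.

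CCT2 and CDK4 were the most abundant genes of the segment and ranked 9 and 10 among the 17358 mRNAs. CCT2, a subunit of the chaperonin that folds actin and tubulin, was at 3874 TPM in the lowest vehicle sample, with a median of 4190.2 and a highest value of 4362 TPM. CDK4 lay between 3763 and 4232 TPM in the vehicle samples with a median of 4053 TPM. These ranges overlapped, and both genes were more than 5 times above the next, TSFM.

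The RefSeq promoter windows of these abundant genes, 250 bases before to 50 bases after the gene start in GRCh38.p14, are shown because they hold the motifs searched for, CACGTG (the E-box that MYC and MYCN proteins can bind) and GGGCGG (the GC box that Sp1 can bind). The CDK4 window on the minus strand, chr12:57752261-57752560, held 3 copies of CACGTG and 3 of GGGCGG on either strand. The CCT2 window on the plus strand, chr12:69585209-69585508, held 1 copy of GGGCGG and no CACGTG. Capitals mark these motifs.
CDK4: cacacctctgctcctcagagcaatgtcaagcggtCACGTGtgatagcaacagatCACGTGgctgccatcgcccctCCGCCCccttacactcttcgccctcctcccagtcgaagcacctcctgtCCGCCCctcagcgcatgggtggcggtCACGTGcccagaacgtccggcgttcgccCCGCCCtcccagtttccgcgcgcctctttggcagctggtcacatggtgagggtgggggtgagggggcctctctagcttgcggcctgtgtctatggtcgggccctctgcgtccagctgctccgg
CCT2: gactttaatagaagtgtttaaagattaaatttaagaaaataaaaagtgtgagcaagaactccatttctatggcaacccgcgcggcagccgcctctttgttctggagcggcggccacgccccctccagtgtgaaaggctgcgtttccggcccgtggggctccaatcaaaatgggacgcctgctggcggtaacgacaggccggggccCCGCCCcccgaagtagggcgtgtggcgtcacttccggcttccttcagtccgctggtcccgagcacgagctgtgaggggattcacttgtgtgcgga

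Promoter windows were found for 45 of the 66 genes. CACGTG occurred in 8 of them (17.8%), against 7.43% of all 27305 windows, and GGGCGG in 30 (66.7%), against 44.6%. The 27305 windows outnumber the 20046 protein-coding genes of the annotation, so windows of other gene types may be among them. The differences were not tested. TATAAA, the core of the TATA box, was present in 5 windows (11.1%, against 12% of all), and the p53 consensus half-site, searched by its usual degenerate form, in 3 (6.67%, against 6.54%). The windows with a half-site belonged to DPY19L2, IL26 and NUP107. Such matches describe letters only, and binding was not measured.

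The positions of the abundant genes are described here, and evenness of their spread was not tested. Counting runs in which at most 1 other expressed gene separates very abundant neighbours, 4 runs were found, TSPAN31 to CDK4, TSFM to ATP23, RAP1B to NUP107 and CPSF6 to CCT2. METTL1 and CNOT2 stood outside these runs. By position, a division made after the values were seen, the genes fell into a stretch from 57.74 to 57.91 Mb with 6 of 11 genes very abundant, and a stretch from 68.61 to 69.59 Mb with 5 of 9. The median level was 158 TPM in the former and 383 TPM in the latter. Both stretches were set to begin and end with a very abundant gene, so these counts and medians follow in part from that choice. The tested genes before them, from DTX3 to AGAP2, lay between 7.91 and 81.8 TPM, and none was very abundant. The 30 tested genes in between, from LRIG3 to MDM1, had a median of 6.43 TPM, and none of them reached even the 90th percentile of 69 TPM. The highest of them was XPOT, the exporter of tRNA from the nucleus, with 60.9 TPM. Beyond CCT2 only CNOT2, a scaffold of the CCR4-NOT deadenylase, was very abundant, with 727 TPM.

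**Figure D1:**
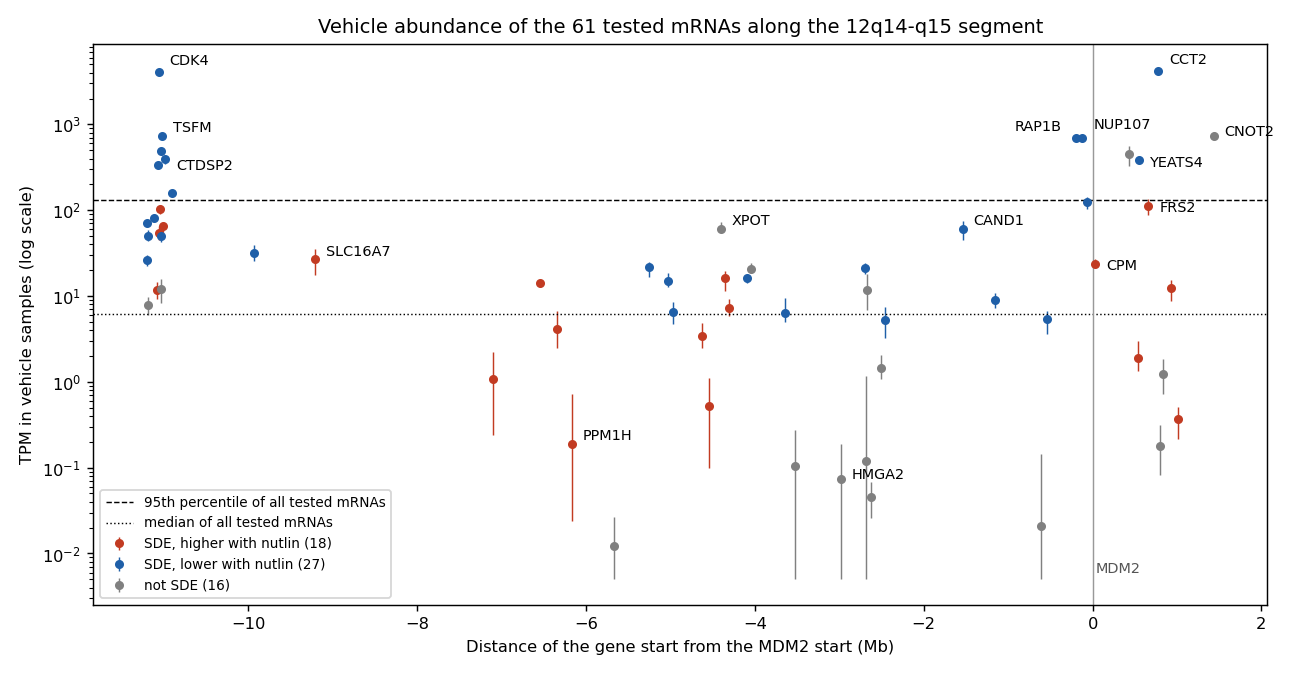
Vehicle TPM (log scale) of the 61 tested genes against the distance of their start from the MDM2 start in Mb; points are means and bars run from the lowest to the highest of 10 vehicle samples, with bars that reach 0 cut near the bottom of the axis. Colours give the call with nutlin. The points above the dashed 95th percentile sit near both ends of the segment, where other genes lie below it. The 30 tested genes from LRIG3 to MDM1 stay below 69 TPM.

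HMGA2, an architectural chromatin protein often named with the amplified genes of this arm, was not abundant. Its TPM ranged from 0 to 0.19 in the vehicle samples with a median of 0.0566, which placed it at the 12th percentile of all tested mRNAs. CPM, the membrane-bound carboxypeptidase M that lies next to MDM2, was at 21.8 to 27.3 TPM and FRS2 at 87.7 to 135 TPM. Of the 5 genes that mark the segment, CDK4 and YEATS4 were thus very abundant, FRS2 was just under the threshold, CPM was at the 73.5th percentile and HMGA2 was near 0.

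As a whole the genes of the segment took 1.93% ± 0.0513 (SD, n = 10) of the TPM of all mRNAs in vehicle samples, while the tested ones are 0.351% of the tested mRNAs. In nutlin samples the share was 1.53% ± 0.0436 (SD, n = 10). The lowest vehicle sample was at 1.85% and the highest nutlin sample at 1.56%, so that the groups did not overlap. The 12 very abundant genes alone took 1.77% and 1.34%.

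Genes within 5 Mb outside the segment gave a setting for these levels. Before the segment 18 of 125 tested genes (14.4%) were very abundant, with RPL41, HNRNPA1 and NACA at the top, and after it 0 of 16. The median level was 10.6 TPM before and 5.04 TPM after. The gene next to the lower end, PIP4K2C, a lipid kinase, was at 16.1 TPM, and DTX3, a ubiquitin ligase and the first gene inside, was at 71.4 TPM. At the upper end CNOT2 at 727 TPM was followed by KCNMB4, a potassium channel subunit, at 9.1 TPM.

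Many proteins encoded here work in complexes whose other subunits are encoded elsewhere. CCT2 was at 4178 TPM, against a median of 306 TPM and a highest value of 884 TPM (CCT3) among the 7 other subunits of the same chaperonin, a ratio to the median of 13.6. NUP107, a scaffold nucleoporin, was at 691 TPM against 15.5 to 115 TPM for the 8 other genes of the Y complex. CNOT2 was at 727 TPM against 4.18 to 139 TPM for 10 other CCR4-NOT genes. CPSF6, a subunit of cleavage factor Im that guides the choice of polyadenylation sites, was at 446 TPM, while its partners NUDT21 and CPSF7 were at 133 and 57.3 TPM. In each of these 4 complexes the gene from the segment was above every partner. All 4 genes are among the very abundant ones, which were picked by the same vehicle TPM. That choice favours a level above the partners, and the difference was not tested.

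YEATS4 was not above every partner. With 383 TPM it was 11 times the median of 15 other NuA4/TIP60 genes but below MORF4L1 at 439 TPM. Among the genes that work with CDK4, the related kinase CDK6 was at 34.6 TPM and cyclin D1 (CCND1), its activating partner, at 544 TPM. FRS2 was at 111 TPM, against 29.5 TPM for FGFR1, the most abundant FGF receptor gene here, and 3.59 TPM for its paralogue FRS3. HMGA1, the paralogue of HMGA2, was at 404 TPM. HMGA2 itself had a mean of 0.0735 TPM, below all 4 genes listed with it (33.9 to 404 TPM).

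**Figure D2:**
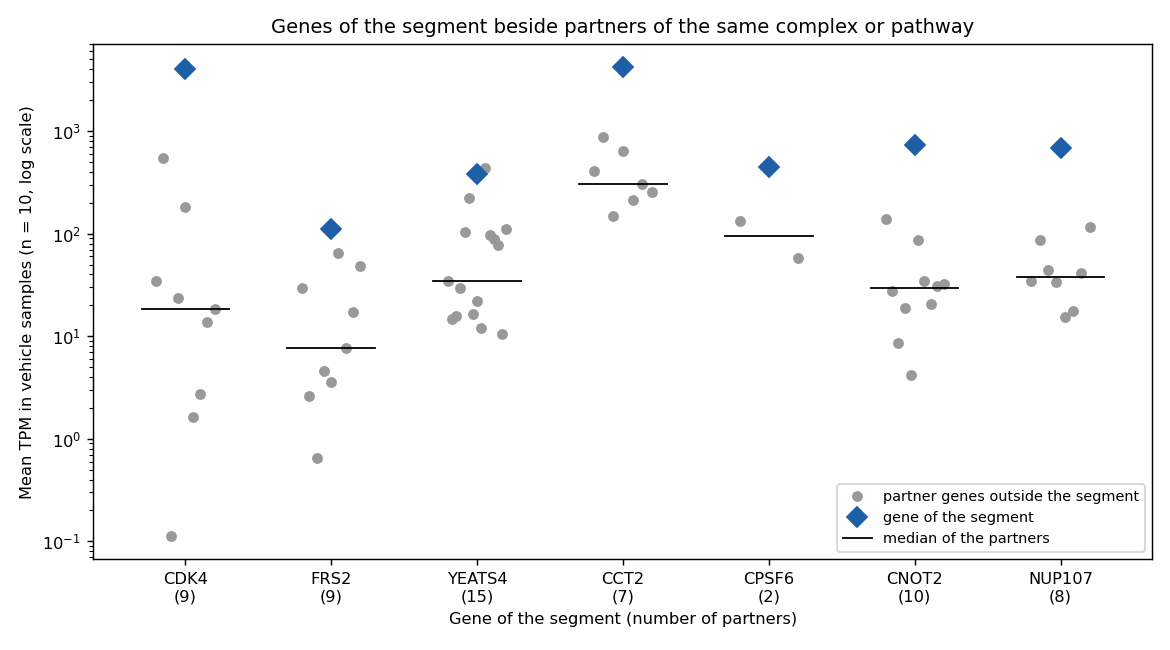
Mean vehicle TPM (log scale, n = 10) of 7 genes of the segment (diamonds) beside their partner genes from other places (grey points, with the number of partners in brackets and their median as a line). All diamonds shown but that of YEATS4 lie above every partner, and all these genes but FRS2 belong to the very abundant ones, picked by the same TPM. HMGA2, at 0.0735 TPM against 33.9 to 404 TPM for the 4 genes listed with it, is not shown.

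The response to nutlin was tested on counts with edgeR's quasi-likelihood F-test, and a gene was called significantly differentially expressed (SDE) at 5% FDR after Benjamini-Hochberg adjustment over all 27712 tested mRNAs and lncRNAs. The log2 fold change (LFC) is nutlin over vehicle, so that positive values mean more RNA in nutlin samples. Values per sample in what follows are normalised counts, scaled with TMM factors to a library of 1000000 counts, and CPM stands only for the gene. Fewer cells that express a gene and less RNA per cell cannot be told apart in such bulk samples. As a check of the labels, MDM2, a known p53 target, lay between 199 and 290.3 normalised counts in vehicle and between 4797 and 6005 in nutlin samples (LFC 4.51 ± 0.0703 SE, adjusted p = 5.65e-29, edgeR).

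In the segment 18 of 61 genes were SDE up (29.5%) and 27 SDE down (44.3%). Over all tested mRNAs 32.4% were SDE up and 38.5% SDE down, so the shares in the segment were near those of the whole. The median LFC was -0.04, against -0.01 over all mRNAs. An LFC beyond 1 was reached by 7 SDE up genes, where the background is 14.1% of mRNAs, and by 5 SDE down genes, where it is 7.67%. Every nutlin sample was above every vehicle sample for 16 genes (14.5% of all mRNAs did so), and every nutlin sample was below for 21 (25.6% of all mRNAs).

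**Figure D3:**
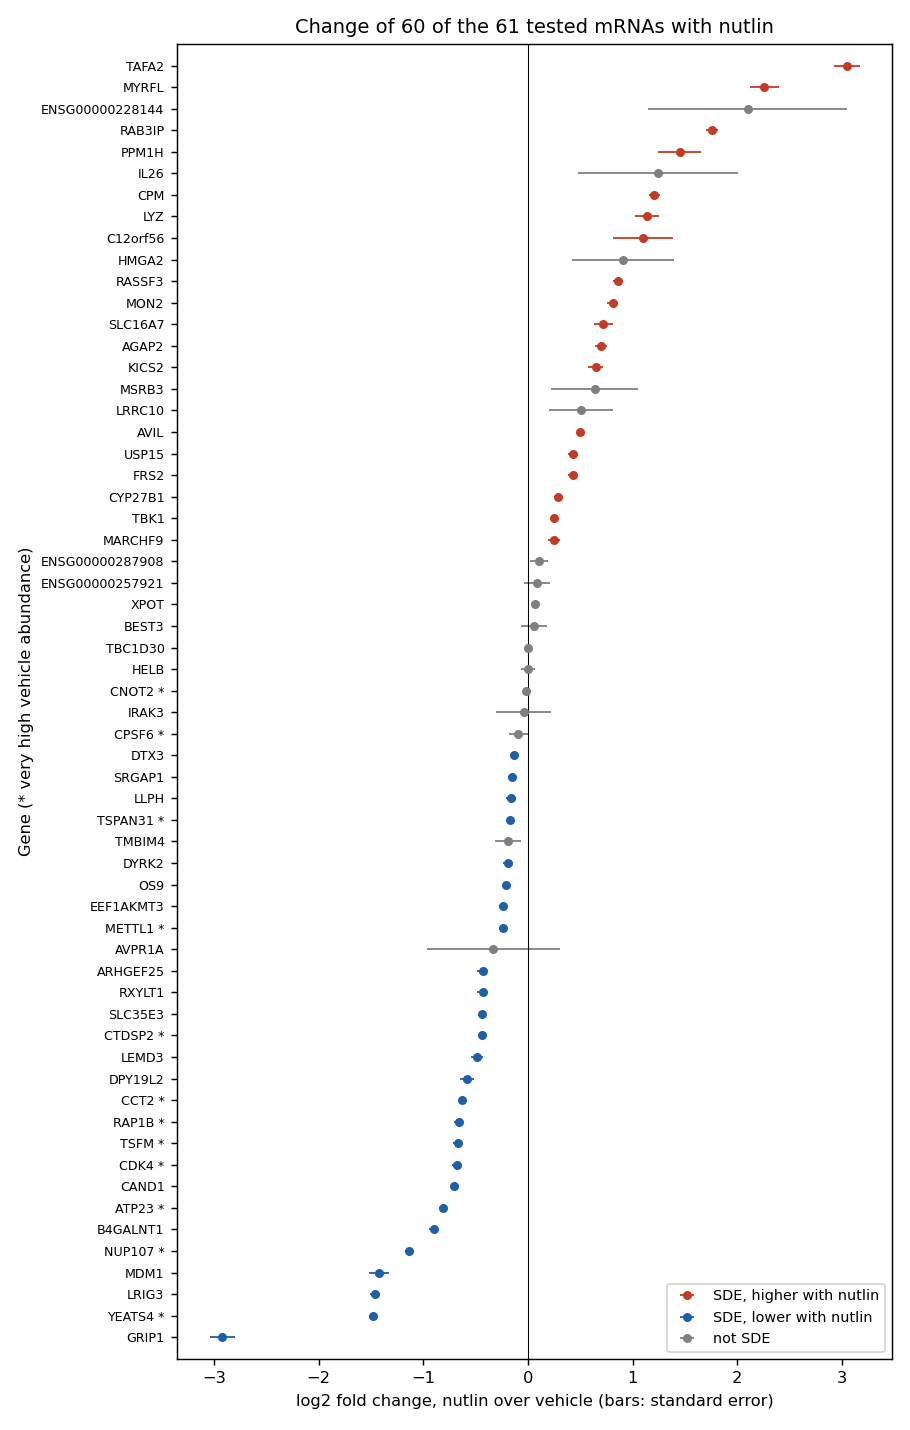
LFC of 60 of the 61 tested genes of the segment with its standard error (10 vehicle and 10 nutlin samples), ordered by LFC; red is SDE up (18 genes), blue SDE down (26) and grey not SDE (16). The very abundant genes, marked with a star, sit at or below 0, and the extremes are TAFA2 at 3.05 and GRIP1 at -2.92.

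With all transcripts summed, none of the 12 very abundant genes was SDE up by edgeR, DESeq2 or limma voom, nor at an unadjusted p under 0.05 (0 genes each). With only transcripts that overlap no other gene's exon, an alternative chosen after the data were seen, CNOT2 was SDE up. Of the 12 genes 10 were SDE down with all transcripts, and the median LFC of the 12 was -0.64. The choice of these genes used the vehicle level, which is also the control of this contrast. Among all 868 mRNAs above the same threshold 12.7% were SDE up and 79.0% SDE down, with a median LFC of -0.54, and the share SDE down among those of the segment (83.3%) was near that.

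The counts for groups of genes below stand against the same shares of all mRNAs, 32.4% SDE up and 38.5% SDE down, and no difference from them was tested. Among the genes of growth signalling and the cell cycle 5 of 14 were SDE up and 8 SDE down. CDK4 had 3755 to 4854 normalised counts in the vehicle samples (median 4103) and 2368 to 3005 in the nutlin samples (median 2562). The groups were apart by a clear gap, and CDK4 fell with an LFC of -0.68 ± 0.0486 (SE, adjusted p = 3.00e-13). TSPAN31, a tetraspanin gene whose exons overlap those of CDK4 on the opposite strand, went from 459.9 to 513 normalised counts in vehicle to 402 to 443 in nutlin samples (LFC -0.17 ± 0.0289, adjusted p = 6.32e-06). With transcripts that overlap no other gene's exon, an alternative chosen after the data were seen, the LFC was -0.48 for CDK4 and -0.49 for TSPAN31. The use of strand in the authors' counting is not given in the sources used here, so reads in the overlap may be shared between them.

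FRS2 moved the other way. It had 317 to 433 normalised counts in vehicle samples (median 387) and 459 to 534 in nutlin samples (median 519), with no overlap between the groups (LFC 0.43 ± 0.0493, adjusted p = 6.84e-09). Of 9 further genes of its pathway, 1 was SDE up, the paralogue FRS3 with an LFC of 0.30, and 6 were SDE down. Those that fell included FGFR1 (LFC -0.71), the adaptor GRB2 (-0.54) and the scaffold GAB1 (-1.10).

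RAP1B, a small GTPase of the Ras family that controls integrin adhesion, was at 714 to 908 normalised counts in vehicle and at 444 to 541 in nutlin samples (LFC -0.66 ± 0.0423, adjusted p = 2.18e-14). LRIG3, a membrane protein that modulates receptor tyrosine kinases, fell from a median of 83.8 to 31.8 normalised counts (LFC -1.46), and MDM1, a centriolar microtubule-binding protein, from 7.9 to 2.82 (LFC -1.42). In both genes all nutlin samples were below all vehicle samples. RASSF3, a Ras association domain protein, rose from a median of 22.1 to 41.6 normalised counts (LFC 0.86, or 1.87 without overlapping transcripts), and the phosphatase gene PPM1H from 0.573 to 1.42 (LFC 1.45). AGAP2, a GTPase-activating protein with exons that overlap TSPAN31 and OS9 on the opposite strand, rose from 31.7 to 53 normalised counts (LFC 0.70), but without overlapping transcripts its LFC was 0.22 with an adjusted p = 0.264. TBK1, a kinase of innate immune signalling, rose by a small amount (LFC 0.25), and IRAK3, an inhibitor of Toll-like receptor signalling, was near 0 throughout.

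The genes that work with CDK4 moved in both directions, with 3 of 9 SDE up and 5 SDE down. CCND1 (LFC 0.45), CCND2 (1.30) and the inhibitor CDKN2B (1.45) were SDE up. CCND3 (-0.55), RB1 (-0.33) and the inhibitors CDKN2A (-0.72), CDKN2C (-2.73) and CDKN2D (-0.93) were SDE down. CDK6 had an LFC of 0.02 with an adjusted p = 0.829.

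**Figure D4:**
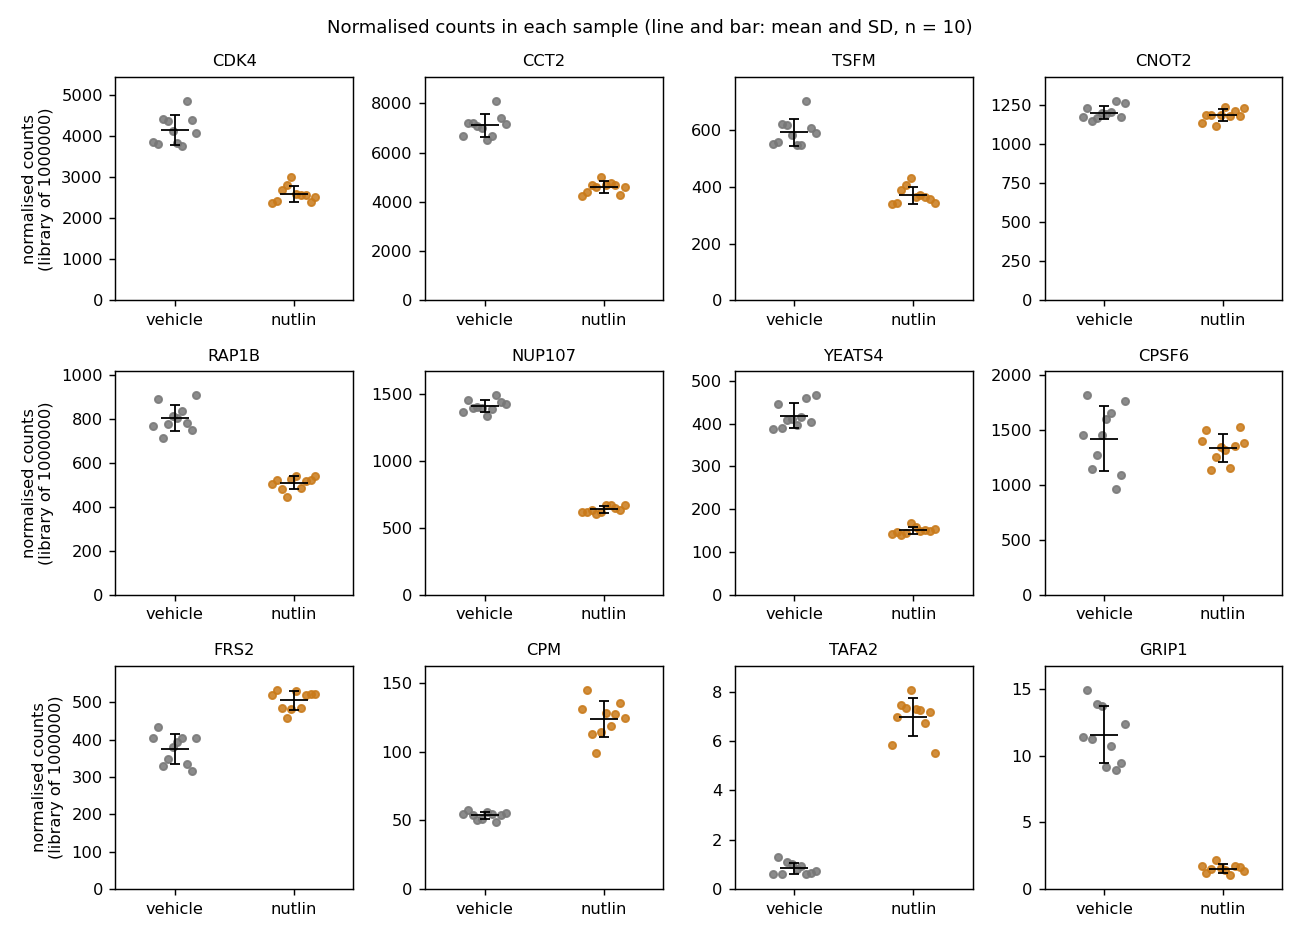
Normalised counts of 12 genes in each of 10 vehicle (grey) and 10 nutlin (orange) samples, with mean and SD; each axis starts at 0. Groups are apart for all genes shown but CNOT2 and CPSF6, and the spread of CPSF6 in vehicle samples, from 959 to 1816, is wider than the difference between the groups.

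Of 8 genes of chromatin, transcription and RNA processing, 4 were SDE down and 0 SDE up by edgeR, also at an unadjusted p under 0.05 (0 genes) and by DESeq2 (0 genes), and 1 by limma voom, HMGA2. With only transcripts that overlap no other gene's exon, CNOT2 was SDE up by edgeR. YEATS4 was among the genes that fell most. Its vehicle samples held 387 to 466 normalised counts (median 410.2) and its nutlin samples 139 to 168 (median 149), a 2.78-fold decrease (LFC -1.48 ± 0.0403, adjusted p = 2.03e-23). Within the NuA4/TIP60 complex 11 of 15 other genes were SDE down and 1, EPC1 (LFC 0.37), was SDE up, against 38.5% and 32.4% of all mRNAs. The vehicle levels of these 15 genes lie between percentiles 58.1 and 98.6, and the shares were not computed for mRNAs of that range. ACTL6A (-1.10), MORF4L1 (-0.98) and the helicase RUVBL2 (-0.81) fell less than YEATS4.

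CTDSP2, a phosphatase of the tail of RNA polymerase II, fell from 1107 to 1327 normalised counts to 834 to 951 (LFC -0.44 ± 0.0374, adjusted p = 1.16e-11). LEMD3, a protein of the inner nuclear membrane, was also SDE down (LFC -0.49), as was LLPH (-0.16). CPSF6 was not SDE. Its vehicle samples ranged from 959 to 1816 normalised counts (median 1458) and its nutlin samples from 1134 to 1526 (median 1351), with an LFC of -0.09 ± 0.089 and an adjusted p = 0.413. Its partners NUDT21 (-0.94) and CPSF7 (-0.27) were SDE down. Vehicle replicates 5, 10 and 11 held the lowest vehicle values of CPSF6, FRS2 and SLC16A7 alike. Replicates 10 and 11 are among the 5 libraries with the lowest mean correlation to their own group.

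CNOT2 had 1147 to 1276 normalised counts in vehicle and 1115 to 1235 in nutlin samples, and the ranges almost coincided (LFC -0.02 ± 0.0298, adjusted p = 0.571). Of 10 other CCR4-NOT genes 7 were SDE down, CNOT9 the most (LFC -1.30), and the deadenylases CNOT6 (0.43) and CNOT6L (0.57) were SDE up. CNOT2 shares exonic sequence with the lncRNA PRANCR on the opposite strand. With transcripts that overlap no other gene its LFC was 0.63 (adjusted p = 4.09e-10), so its direction depends on which transcripts are summed, and with all transcripts it also turned to 0.03 under DESeq2 size factors. HMGA2 had 0 to 0.497 normalised counts in vehicle and 0.0601 to 0.595 in nutlin samples, and it was not SDE (LFC 0.91 ± 0.484, adjusted p = 0.111), although limma voom called it (LFC 1.15, adjusted p = 0.0325), as did edgeR without the 5 libraries least like their group (LFC 1.53, adjusted p = 0.0268), an alternative chosen after the data were seen. HMGA1 (LFC -0.34) and LIN28B (-0.75), the inhibitor of let-7 maturation, were SDE down, as were IGF2BP1 (-0.76) and IGF2BP3 (-0.79).

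Of 10 genes of tRNA modification, translation, the nuclear pore, protein folding and turnover 8 were SDE down and 1 SDE up. Of these 10 genes 4 are very abundant, and 79.0% of all mRNAs of that abundance were SDE down, against 38.5% of all mRNAs. CCT2 went from 6535 to 8099 normalised counts in vehicle (median 7131) to 4255 to 5002 in nutlin samples (median 4658), with an LFC of -0.63 ± 0.0391 and an adjusted p = 1.27e-14. The 7 other chaperonin genes were all SDE down, with LFC from -1.12 (CCT5) to -0.37 (CCT8) and a median of -0.58. They too are above the 95th percentile, where 79.0% of mRNAs were SDE down with a median LFC of -0.54. The LFC of CCT2 was within this range, and its ratio to the median partner was 13.6 in vehicle and 13.6 in nutlin samples.

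NUP107 was at 1338 to 1491 normalised counts in vehicle (median 1401) and at 604 to 672 in nutlin samples (median 637). This was a 2.21-fold decrease (LFC -1.14 ± 0.0308, adjusted p = 1.49e-23). All 8 other Y complex genes were SDE down, with LFC from -1.09 (NUP43) to -0.56 (SEH1L), against 38.5% of all mRNAs. Their vehicle levels lie between percentiles 65.6 and 94.1 of all tested mRNAs. The share SDE down was 79.0% among mRNAs above the 95th percentile, and it was not computed for the range of these genes. TSFM, the mitochondrial elongation factor Ts, fell from a median of 586 to 364 normalised counts (LFC -0.67 ± 0.0472), with exons that overlap AVIL on the opposite strand. METTL1, the methyltransferase of tRNA guanosines, had overlapping ranges of 293 to 383 and 263 to 306 normalised counts (LFC -0.24, adjusted p = 2.34e-06). Its exons overlap those of CYP27B1 and EEF1AKMT3, and without overlapping transcripts the LFC was -0.08 with an adjusted p = 0.0957. CAND1, the exchange factor of cullin ubiquitin ligases, fell from 191 to 117 normalised counts in the median (LFC -0.71). DTX3 was SDE down by a small margin (LFC -0.13 ± 0.0369, adjusted p = 0.00342), and it lost the call with DESeq2 size factors (adjusted p = 0.0555), filterByExpr (0.177) and the replicate block (0.0652). The SDE up gene of this group was the deubiquitinase USP15 (LFC 0.43), and XPOT was not SDE (LFC 0.07, adjusted p = 0.0814).

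Among 8 enzymes of metabolism and glycosylation 5 were SDE down and 2 SDE up. ATP23 fell from 104 to 125 normalised counts to 61.9 to 67 (LFC -0.81 ± 0.0347, adjusted p = 1.25e-18). B4GALNT1, the synthase of the gangliosides GM2 and GD2, fell from a median of 149.9 to 81 normalised counts (LFC -0.90 ± 0.0452, adjusted p = 5.78e-17). RXYLT1 (LFC -0.43) and DPY19L2 (-0.58) were SDE down as well. CYP27B1, the enzyme that makes active vitamin D, was higher (LFC 0.29), as was KICS2, a subunit of an amino acid sensing complex (0.65). The exons of CYP27B1 overlap those of METTL1 on the same strand, which was at 492 TPM in vehicle samples against 102 TPM for CYP27B1.

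Among 10 genes of membrane transport and trafficking 5 were SDE up and 2 SDE down, against 32.4% and 38.5% of all mRNAs, and the difference was not tested. RAB3IP, an exchange factor for Rab GTPases, had 19.9 to 24.8 normalised counts in vehicle and 60.7 to 85.7 in nutlin samples, a 3.4-fold increase (LFC 1.76 ± 0.0543, adjusted p = 3.80e-22). MON2, a regulator of Golgi trafficking, rose from a median of 22.7 to 37.9 normalised counts (LFC 0.81), and the monocarboxylate transporter SLC16A7 from 121 to 204 (LFC 0.72). AVIL, an actin-binding protein (LFC 0.50), and the ubiquitin ligase MARCHF9 (0.25) were SDE up too. The exons of AVIL overlap those of TSFM on the opposite strand, which was at 731 TPM in vehicle samples against 65 TPM for AVIL. The largest decrease of the segment was that of GRIP1, a scaffold of glutamate receptors. It had 8.95 to 15 normalised counts in vehicle and 1.03 to 2.19 in nutlin samples, a 7.55-fold decrease (LFC -2.92 ± 0.12, adjusted p = 5.42e-19). SLC35E3 was the other gene that fell (LFC -0.44).

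Of 5 tested secreted, immune and receptor genes 3 were SDE up, TAFA2, LYZ and CPM. TAFA2, a secreted chemokine-like protein of the nervous system, rose from 0.598 to 1.28 normalised counts to 5.52 to 8.08. By counts this was an 8.28-fold increase and the largest of the SDE genes of the segment (LFC 3.05 ± 0.123, adjusted p = 2.79e-19). In TPM the rise was smaller, from a mean of 1.08 (0.237 to 2.25) in vehicle to 2.82 (2.27 to 3.98) in nutlin samples. RAB3IP went from a mean of 12.4 to 43.4 TPM, so the rank of TAFA2 holds for counts only. LYZ, the lysozyme gene, rose from a median of 2.24 to 5.13 normalised counts (LFC 1.14 ± 0.114, adjusted p = 5.25e-10). LYZ is also a gene of myeloid cells, and the summed level of the immune list was 0.389 to 1.67 TPM in vehicle and 2.96 to 6.56 TPM in nutlin samples, with PTPRC and CD3E below 1 TPM. Its part in the result was not tested. Among the remaining genes MYRFL, related to the myelin regulatory factor, rose from a median of 1.11 to 5.13 normalised counts (LFC 2.26 ± 0.139, adjusted p = 8.05e-15). Its exons overlap those of the more abundant PRANCR on the opposite strand, and no transcript was free of overlap. C12orf56, with a median under 1 normalised count, had an LFC of 1.10.

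CPM, the neighbour of MDM2, rose from 49.2 to 57.3 normalised counts in vehicle (median 54.4) to 98.9 to 146 in nutlin samples (median 126), a 2.31-fold increase (LFC 1.21 ± 0.0507, adjusted p = 8.41e-19). CPM is read on the minus strand and its exons overlap those of MDM2 on the plus strand, as well as a processed pseudogene, ENSG00000256664, whose mean rose from 118 to 1159.5 TPM. Without overlapping transcripts the LFC of CPM was 1.26. The rise was uneven between its transcripts. The retained-intron transcript CPM-204 had 0 to 1.63 TPM in vehicle and 8.99 to 31.9 TPM in nutlin samples, and the retained-intron transcript CPM-206 had 0 to 1.06 TPM and 8.21 to 19.1 TPM. The coding transcript CPM-201 went from a mean of 5.04 to 8.61 TPM and CPM-202 from 5.37 to 3.59 TPM. Whether reads of the strongly induced MDM2 locus contribute to these values was not tested. The CPM promoter window on the minus strand, chr12:68933150-68933449, is shown for this neighbour that rose with MDM2. It held 6 copies of GGGCGG on either strand, in capitals, and no CACGTG and no p53 half-site.
CPM: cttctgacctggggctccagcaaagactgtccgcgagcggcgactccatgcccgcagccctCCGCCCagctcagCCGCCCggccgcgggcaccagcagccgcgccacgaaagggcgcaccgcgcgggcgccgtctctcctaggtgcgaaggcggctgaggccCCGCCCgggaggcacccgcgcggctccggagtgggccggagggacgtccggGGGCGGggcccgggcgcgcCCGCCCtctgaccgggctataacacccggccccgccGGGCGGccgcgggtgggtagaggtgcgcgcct

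Transcript use within genes was tested as the share of a gene's TPM that falls on the transcript with the highest vehicle mean, by a two-sided permutation test with 100000 resamples and Benjamini-Hochberg adjustment over 24 genes. These 24 genes had a vehicle mean of at least 5 TPM. They were taken from the marker genes, the very abundant genes, the segment ends and the genes with the largest LFC. Other genes were not tested in this way, so the count that follows has no background share beside it. The share changed in 17 of 24 genes and was lower with nutlin in these. Since the transcript was chosen for its vehicle level, the choice itself favours a lower share with nutlin, and no direction is read from this count. With the transcript of the highest mean over all samples, chosen after the data were seen, the share changed in 16 genes, in 14 downward and in 2 upward. The largest drop was that of FRS2-201, from 39.9% ± 3.68 to 21.5% ± 3.44 (SD, n = 10, adjusted p = 6.9e-05), with no overlap between the groups, and FRS2-206 rose in the mean from 41.9 to 75.9 TPM. The adjusted p is the smallest that these resamples gave, and it was shared by 7 genes.

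CPM-202 fell from 23% ± 5.99 to 5.32% ± 2.58 of its gene, and CNOT2-202 from 32.3% ± 5.65 to 16.2% ± 2.11 (adjusted permutation p = 6.9e-05 for both). For CNOT2 the gene count was level while CNOT2-202 went from a mean of 235 to 124 TPM and CNOT2-201 from 87.4 to 155 TPM. CPSF6 showed a like pattern, in that CPSF6-202 fell from 43.9% ± 9.23 to 29.5% ± 4.51 (adjusted permutation p = 0.0011). There CPSF6-201 went from a mean of 57.9 to 116 TPM and CPSF6-203 from 39.4 to 99.8 TPM. CCT2-201 fell from 89.5% ± 1.27 to 82.2% ± 1.33, and CDK4-201 from 32.7% ± 0.805 to 30.5% ± 1.35. YEATS4-201 kept a similar share, 69.6% ± 4.46 in vehicle and 68% ± 4.05 in nutlin samples (adjusted permutation p = 0.39), although the gene fell 2.78-fold.

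**Figure D5:**
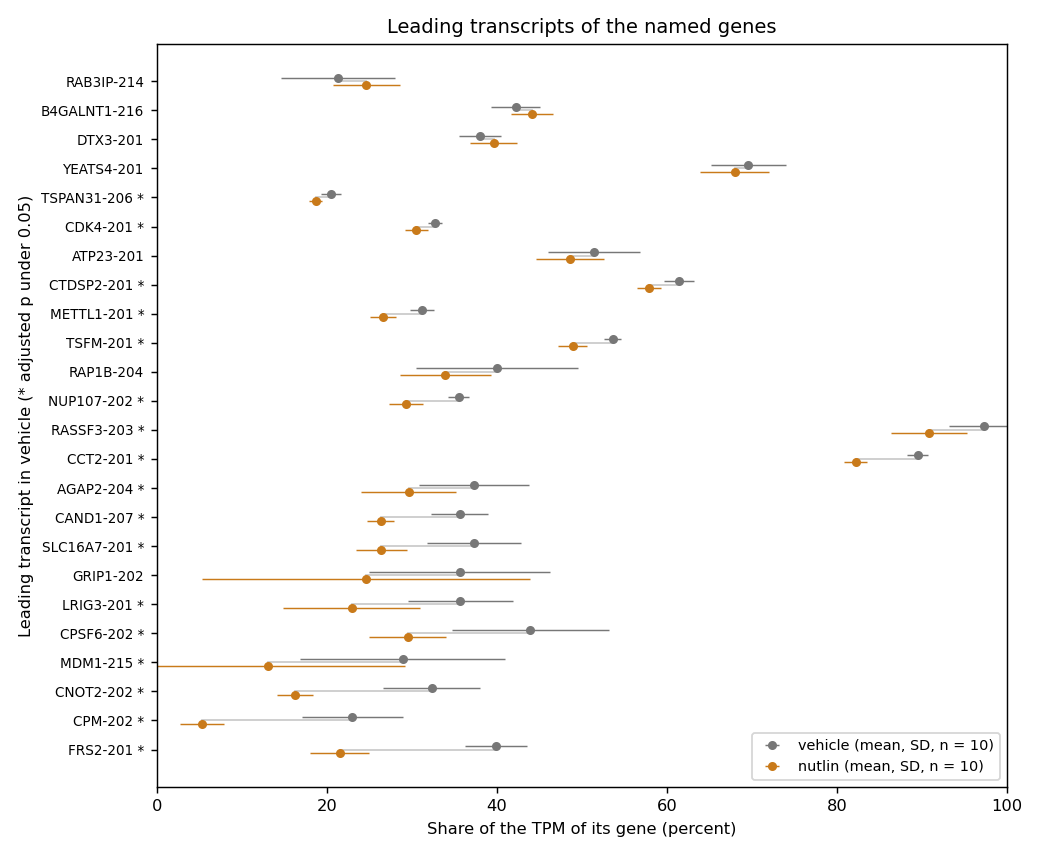
Share of the gene's TPM (percent) held by the leading vehicle transcript of 24 genes, as mean and SD over 10 vehicle (grey) and 10 nutlin (orange) samples. Stars mark adjusted permutation p under 0.05 (17 genes). FRS2-201, CPM-202 and CNOT2-202 have the largest shifts. CCT2-201 and NUP107-202, among others, also shift by more than their SD, and YEATS4-201 stays near 69.6%.

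Of the 56 tested lncRNAs of the segment 24 were SDE up (42.9%) and 5 SDE down (8.93%), against 32.0% and 6.36% of all tested lncRNAs. Their median LFC was 0.58, against 0.50 over all lncRNAs. They were low, with a median of 0.266 TPM in vehicle samples, and 37 of 56 were below 1 TPM. Without genes of low counts (filterByExpr), 21 lncRNAs were left, of which 13 were SDE up and 4 SDE down.

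The abundant lncRNAs were GIHCG at 315 TPM, PRANCR at 222 TPM and AGAP2-AS1 at 147 TPM. GIHCG, which lies within the span of ATP23 on the opposite strand, fell from 102 to 144 normalised counts in vehicle to 50.4 to 70.2 in nutlin samples (LFC -1.03 ± 0.0612, adjusted p = 3.70e-15). AGAP2-AS1 fell from a median of 188 to 124 (LFC -0.60), and its exons overlap OS9 on the same strand. PRANCR was not SDE (LFC 0.03, adjusted p = 0.607), like its overlapping neighbour CNOT2. LINC02373, close to FRS2, was SDE down (LFC -0.56), whereas FRS2 rose.

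A pair of lncRNAs that rose lies inside MDM2. ENSG00000256325 went from 0 to 0.403 normalised counts in vehicle to 2.12 to 4.49 in nutlin samples (LFC 4.16 ± 0.239, adjusted p = 1.66e-15). ENSG00000257181, on the strand opposite to MDM2 with overlapping exons, went from 14.8 to 37.2 to 144 to 296 (LFC 3.14 ± 0.138, adjusted p = 2.30e-18). Reads of MDM2 and of these genes may not be told apart in the counts. NUP107-DT, which overlaps NUP107 on the opposite strand, rose from a median of 5.1 to 11.2 normalised counts (LFC 1.17 ± 0.0834), while NUP107 fell.

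MIRLET7IHG, the host of let-7i, rose from 13.7 to 18.9 normalised counts to 20.8 to 25.8 (LFC 0.55 ± 0.0563, adjusted p = 7.31e-10). ENSG00000275180, a lncRNA that also spans let-7i on the same strand, was more abundant (38.9 against 2.01 TPM in vehicle) and was SDE down (LFC -0.21 ± 0.0661, adjusted p = 0.00611). Mature miRNAs were not measured in these libraries. The RefSeq sequences of 2 mature miRNAs are shown because the let-7 seed pairs with HMGA2 and LIN28B transcripts in textbook accounts and because miR-26a comes from an intron of CTDSP2, which fell. In GRCh38.p14 the former lies at chr12:62603691-62603712 on the plus strand and the latter at chr12:57824658-57824679 on the minus strand. Capitals mark the seed, bases 2 to 8.
let-7i-5p: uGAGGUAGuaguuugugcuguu
miR-26a-5p: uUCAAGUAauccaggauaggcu

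Outside the segment 44 of 125 genes before it were SDE up (35.2%) and 48 SDE down (38.4%), and after it 9 of 16 were SDE up and 5 SDE down. PIP4K2C, next to the lower end, was SDE down (LFC -0.32 ± 0.0415, adjusted p = 7.06e-08). KCNMB4, next to the upper end, was SDE up (LFC 0.26 ± 0.0518, adjusted p = 8.48e-05), whereas CNOT2 was not SDE. The median LFC was 0.00 before the segment and 0.26 after it. Both sides had a larger share SDE up and a smaller share SDE down than the segment, and this difference was not tested.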

How the data were processed

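RNA-seq of 20 samples of NGP cells was analysed, 10 per condition, with the condition of each taken from its label. The authors ran kallisto 0.42.4 on GRCh38 (hg38) transcripts and deposited estimated counts (expected counts, not normalised), effective lengths and TPM for 198968 transcripts per sample. Of these, 191106 (96.05%) were matched by Ensembl identifier to GENCODE release 44, newer than the authors' annotation. Estimated counts and TPM were summed per gene, and counts were rounded. A gene entered the test where each condition held at least 1 count. The test was the quasi-likelihood F-test of edgeR 4.0.16 under R 4.3.3, with TMM factors and no term but the condition. SE is the absolute LFC divided by the root of F. Alternatives used DESeq2 1.42.0 and limma 3.58.1. Permutation tests used scipy 1.17.1 with numpy 2.4.6, sums used pandas 2.3.3, and plots used matplotlib 3.10.9 (Python 3.11.15). The fit was tested on simulated data.

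The members, the role and partner lists and the tests were chosen with earlier results of these data known. Genes named with values were the 5 marker genes, the very abundant genes, the 10 SDE genes with the largest LFC in each direction and a mean of at least 1 normalised count, the genes at both ends with their outer neighbours, the genes of the role and partner lists, and genes at 0. Overlap means at least 1 shared exonic base with a gene of at least 1 TPM. Values of 1 gene of the segment are not reported here.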

Additional observations from a re-analysis of the deposited data

Results flagged for a closer look

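Among 60 groups of 10 samples of the 30 named genes, 2 held a sample far from the others by Dixon's test, where chance flags about 1 in 20. TSFM stood at 701 normalised counts in vehicle replicate 10, against 545 to 619.5 in the other 9 vehicle samples. CTDSP2 stood at 951 normalised counts in nutlin replicate 4, against 834 to 896 in the other 9 nutlin samples. Both samples were among the 5 libraries with the lowest mean correlation to their own group. Without these 5 libraries, an alternative chosen after the data were seen, the LFC was -0.67 for TSFM and -0.44 for CTDSP2, the values found with all samples.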

How the results depend on the processing

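For the protein-coding genes the count of SDE up genes was between 17 and 20 and that of SDE down genes between 22 and 27 over all alternatives run. With the replicate number as a block, on 16 samples with shared numbers, 18 were SDE up and 25 SDE down, against 18 and 26 for the same samples without it. No pairing of the samples by number was seen over all tested genes, of which 48% were below 1 TPM in vehicle samples. The labels do not say whether equal numbers mark a shared culture or day, and such sharing was not tested further. Over 8 numbers the correlation of the deviations ran from -0.02 to 0.0255 and was above 0.1 for 0 of them, and 0 vehicle samples correlated best with their own number. For lncRNAs the block gave 17 SDE up and 5 SDE down, against 21 and 6 for the same samples without it and 24 and 5 with all samples. With filterByExpr 13 lncRNAs were SDE up, out of 21 tested. Without transcripts that overlap another gene 3 lncRNAs were SDE down, out of 41 tested. At the 99th percentile 6 genes were very abundant, and at the other settings between 10 and 17. The leading transcript share changed in 15 of 24 genes on estimated counts and in 16 for the transcript with the highest mean over all samples, against 17.

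For the LFC of the 30 named genes 327 values were computed under 11 alternatives, of which 313 kept direction and call. CNOT2, with an LFC of -0.02, reversed to 0.63 without overlapping transcripts, where METTL1 and AGAP2 lost their call, RASSF3 moved from 0.86 to 1.87, and TSFM and MYRFL had no transcript left. DTX3 lost its call with DESeq2 size factors, with filterByExpr and with the block (adjusted p = 0.0652). HMGA2 passed the threshold with limma voom (LFC 1.15) and without 5 libraries (1.53). CNOT2 also turned to 0.03 with DESeq2 size factors and with DESeq2, 0.06 with filterByExpr, 0.02 without 5 libraries and 0.00 on the 16 samples, with and without the block, and was not SDE in any of these. The cause of these moves was not tested. With DESeq2 size factors the median LFC of all genes was 0.24 in place of 0.19, and among the named genes the direction changed under it for CNOT2 only. Counting error limits genes below 1 normalised count, HMGA2 and C12orf56 among them.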

Other observations

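Some genes of the segment were silent or nearly so in NGP cells. IFNG, the gene of interferon gamma, was at 0 TPM in all 20 samples, and WIF1, a secreted Wnt inhibitor, and IL22 were at 0 in all vehicle samples. IL26 had at most 0.188 normalised counts in any nutlin sample, and AVPR1A, a vasopressin receptor, at most 0.192. MSRB3, a methionine sulfoxide reductase, had means of 0.104 and 0.13 TPM. Further genes were expressed at a middle level with near equal counts in both conditions. TBC1D30, a GTPase-activating protein for Rab GTPases, had a median of 70.9 normalised counts in vehicle and 69.5 in nutlin samples (LFC 0.00 ± 0.0349 SE), and HELB, a DNA helicase, 13.7 and 14.1 (LFC -0.00 ± 0.0642 SE).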
